A study of Mus musculus with 12 samples.

Results

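The response of WD44 cells to knockdown of *Kdm6a* was read from 4 of the 12 arrays of the series, chosen by their titles: a control and a *Kdm6a* RNAi array in each of 2 experiments. WD44 is a male mouse embryonic stem (ES) cell line from BL6 blastocysts, used at passage 14 to 18. It was kept with 1000 U/ml of LIF, a cytokine that holds ES cells undifferentiated, on embryonic fibroblast (MEF) feeders, which were reduced before transfection by letting them attach to gelatin for 30 min. The labels name no difference between the 4 cultures other than the siRNA: 100 pmol of Stealth siRNAs against *Kdm6a*, or of negative control Stealth siRNAs, transfected once, with harvest at 48 h. The study asked how the loss of KDM6A affects gene expression in female and male ES cells. Its other 8 arrays hold 4 experiments in the female line PGK12.1, from a 129 female and a (129 x PGK)F1 male, with the same single treatment in 2 experiments and, in 2 others, a second transfection with 400 pmol and harvest 24 h later. WD44 and PGK12.1 differ in sex and in strain, and effects of these cannot be told apart. The study's figure legend speaks of independent experiments, but the labels do not say what was separate between the 2 in WD44, so p-values measure only the spread between these arrays, which may be technical.

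Of 19951 genes with a name on the array, 15340 had a mean level of at least 0.1 and were tested. The level of a gene is its linear value divided by the mean of its array. Values below are log2 array values, and differences are *Kdm6a* RNAi minus control within an experiment, on the log2 scale. The array medians of the 4 WD44 arrays lay between 8.03 and 8.08. PGK12.1 enters only as a comparison and through the test: in the limma fit over all 12 arrays it gives 3 of the 4 residual degrees of freedom. A gene is called alike where its difference had the same sign and a size of at least 0.2 in both WD44 experiments, which is a description and not a test.

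KDM6A, also known as UTX, removes methyl groups from lysine 27 of histone H3, the mark that Polycomb repressive complex PRC2 lays down over silent developmental genes. It works inside complexes that hold the H3K4 methyltransferases KMT2C or KMT2D together with PAXIP1 and PAGR1, which act at enhancers and promoters. The gene lies on the X chromosome and escapes X inactivation. Its Y-linked relative *Uty* encodes a protein with little demethylase activity, so male cells carry a copy of each, and the autosomal paralogue *Kdm6b* encodes a further H3K27 demethylase.

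The WD44 arrays carried the markers of male ES cells. All 10 ES cell markers, among them *Pou5f1*, *Nanog* and *Sox2*, lay at or above the minimum, and their summed level was 63.8 and 61.7 on the control arrays and 63.2 and 60.9 on the *Kdm6a* RNAi arrays. The summed level of the 3 Y-linked markers measured was 1.82 to 2.06, against 0.0907 to 0.135 in PGK12.1. Markers of other cell types were present too. The 10 MEF markers summed to 4.6 and 4.71 on the control arrays and 4.91 and 5.43 on the *Kdm6a* RNAi arrays, most of it from *Acta2*. Their sum in PGK12.1 was 1.85 to 2.78. On the WD44 arrays 8 of the 10 lay at or above 0.1, while *Postn* and *Lum*, which fibroblasts make in large amounts, lay under it. The 6 trophoblast markers summed to 9.35 and 8.98 on the controls and 9.98 and 9.87 after *Kdm6a* RNAi, most of it from *Krt8*. The 7 primitive endoderm markers summed to between 9.11 and 9.92, most of it from *Sparc*, which had levels of 7.59 to 8.43. In such bulk samples, fewer cells of a type and less RNA per cell cannot be told apart.

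*Kdm6a* was the most strongly lowered gene of the 15340. In experiment 1 its log2 value was 11.29 on the control array and 10.35 on the *Kdm6a* RNAi array, and in experiment 2 it was 11.29 and 10.37. The groups did not overlap, and the differences of -0.94 and -0.92 correspond to a mean change of -47.5% on the linear scale. The mean difference was -0.93 (SE 0.109, n = 2 experiments, 95% interval -1.17 to -0.69), with an adjusted p of 0.131 in limma. This was the smallest adjusted p of the fit, which passed 0 of the 15340 genes (0% called) at 0.05. At an unadjusted p under 0.05, 1357 genes were higher (8.85%) and 1107 lower (7.22%). A limma fit with an intensity trend and robust variances gave *Kdm6a* an adjusted p of 0.00313 and passed 8 genes in WD44. No other gene had a mean difference above 0.635 in size.

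The paralogues of *Kdm6a* showed much smaller differences. *Uty* had values of 9.63 and 9.55 in experiment 1 and 9.68 and 9.5 in experiment 2, for control and *Kdm6a* RNAi. Its groups did not overlap, but the mean difference of -0.13 had a 95% interval of -0.48 to 0.22. That interval also draws on the spread in the female line PGK12.1. There *Uty* had levels of only 0.0198 to 0.0371 and differences of -0.4 to 0.34. *Kdm6b* went from 10.34 to 10.29 and from 10.28 to 10.24, and its control of experiment 2 lay below its *Kdm6a* RNAi array of experiment 1.

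**Figure D1:**
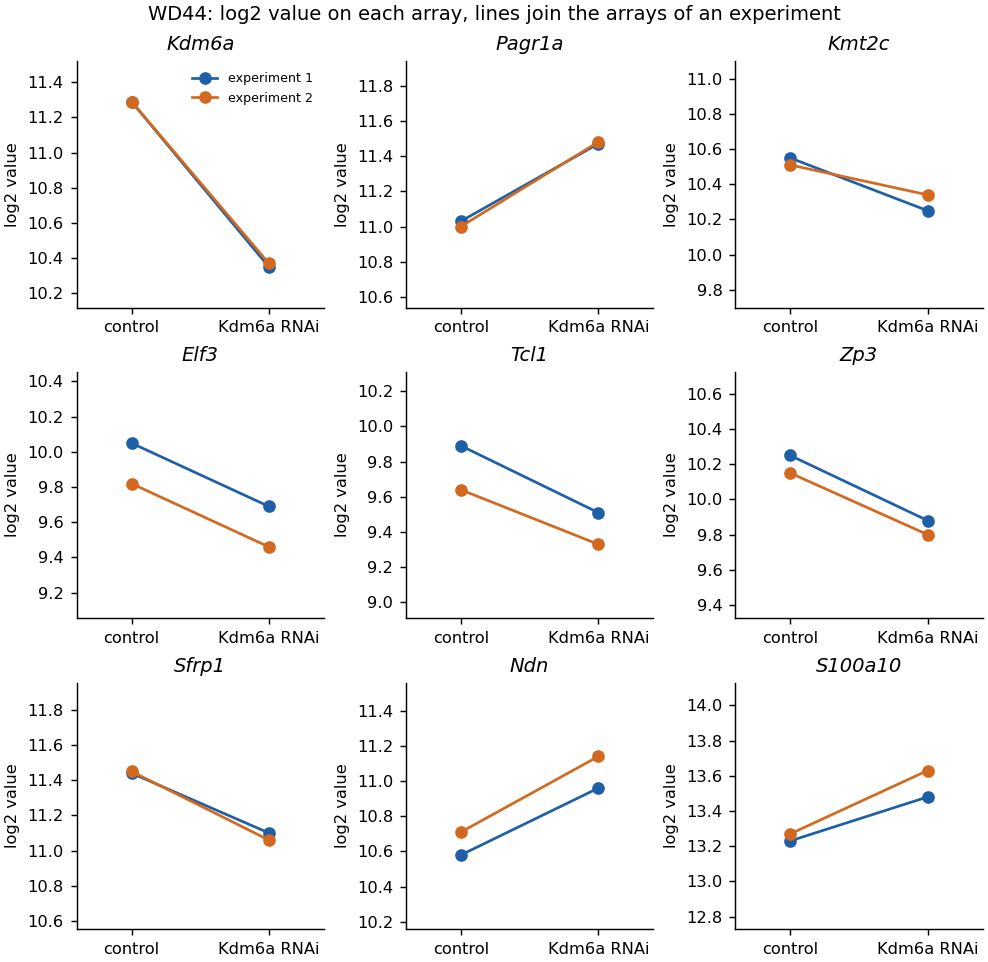
Log2 value of 9 genes on the 4 WD44 arrays, with control at left and Kdm6a RNAi at right in each panel, and a line joining the arrays of an experiment (blue for experiment 1, orange for experiment 2). All panels span the same height in log2 units; Kdm6a had differences of -0.94 and -0.92, and the other genes had smaller ones with the same sign in both experiments.

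Across all genes, the 2 WD44 experiments shared a part of their differences. The Pearson correlation of the differences between the experiments was 0.491 across 15340 genes, which are not independent replicates, and the SD of the differences was 0.149 and 0.139. The sign was the same in both experiments for 64.3% of genes, of which 4797 were higher (31.3%) and 5071 lower (33.1%). Alike by at least 0.2 were 764 genes: 478 higher (3.12%) and 286 lower (1.86%), against 56 genes that passed 0.2 in both experiments with opposite signs. The *Kdm6a* RNAi arrays both lay above both controls for 470 of the 478 (98.3%) and both below for 276 of the 286 (96.5%), against 23.3% and 22.9% of all genes. Just inside the limit of 0.2 lay *Unc5cl* at 0.2 and *Zfp958* at -0.2, and just outside *Sdhaf4* at 0.195 and *Frem2* at -0.19 in their smaller difference. Which way the balance of signs tipped depended on the scaling. After quantile normalization within sets of arrays, with the 4 WD44 arrays as 1 set, 5939 genes were higher and 3729 lower in both experiments.

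**Figure D2:**
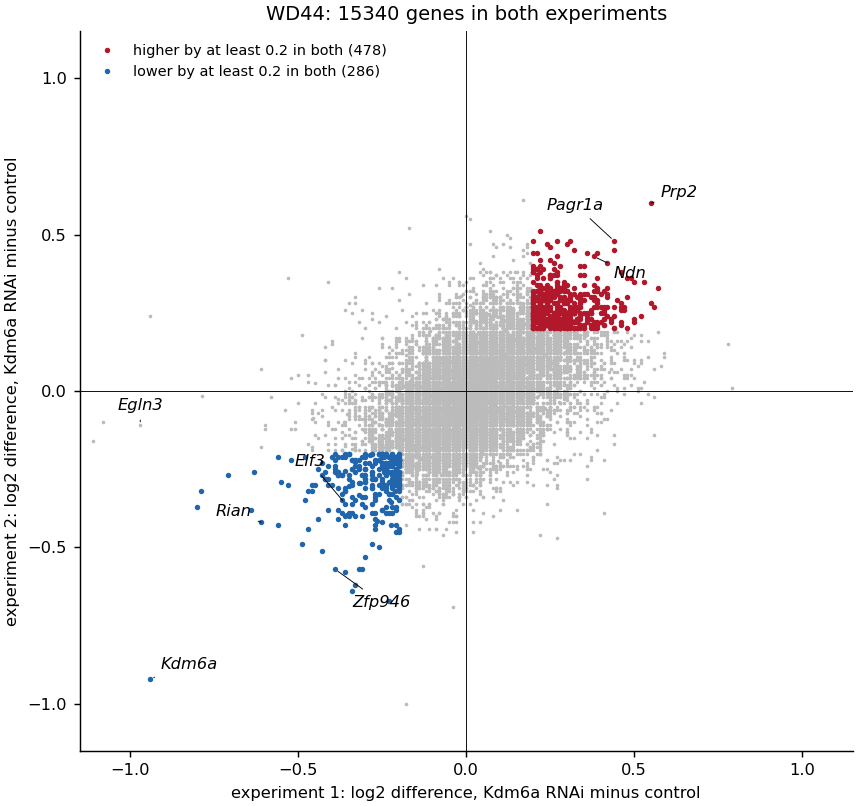
Each point is 1 of the 15340 genes, with its log2 difference (Kdm6a RNAi minus control) in WD44 experiment 1 on the horizontal axis and in experiment 2 on the vertical axis. The 478 genes higher by at least 0.2 in both are red and the 286 lower ones blue; Kdm6a stands apart at the lower left, and Egln3 is an example of a gene with a large difference in experiment 1 only.

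Faint genes leaned upward in both WD44 experiments. Among the 2111 genes with a level of 0.1 to 0.15, the median difference was 0.12 in experiment 1 and 0.07 in experiment 2, and 8.62% were alike higher against 0.995% alike lower. Among the 2808 genes with a level of 0.5 to 1 the medians were -0.04 and -0.06, and 1.1% were alike higher against 2.6% alike lower. The same ranges in PGK12.1 experiments 3 and 4, which had the same single treatment, had medians between -0.01 and 0.02. Of the 478 genes alike higher, 345 (72.2%) had a level under 0.25, a range that holds 31% of the genes tested, while 53 of the 286 alike lower did (18.5%). In shares of the genes, 7.25% were alike higher and 1.11% alike lower below 0.25, against 1.26% and 2.2% at or above it. With the trend of difference on level removed, an alternative chosen after seeing the data, 211 genes were alike higher and 280 alike lower, and the correlation between the experiments was 0.414. The part of expression level in the counts of higher genes below was not tested further, and levels are given where they bear on a result.

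**Figure D3:**
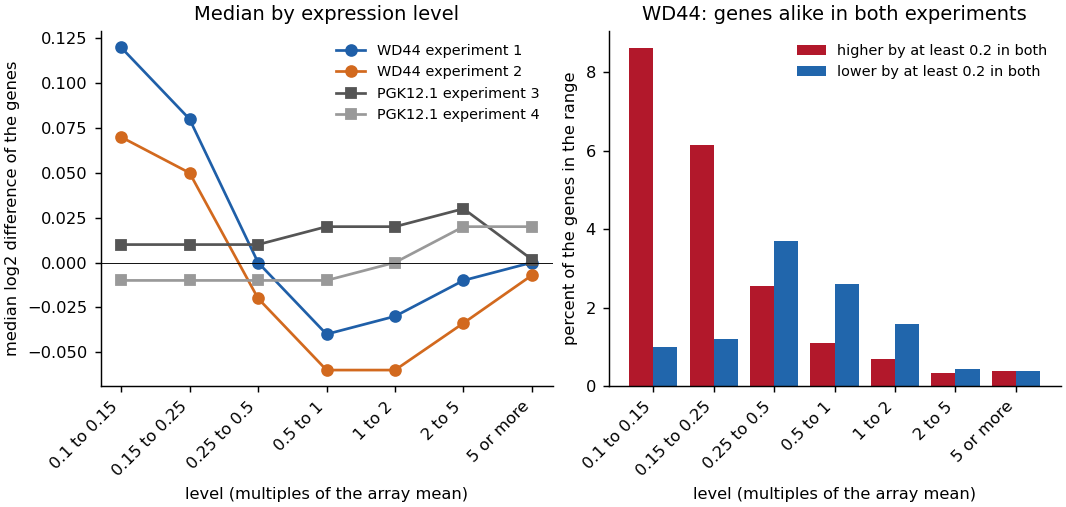
Left, the median log2 difference (Kdm6a RNAi minus control) of genes grouped by level (multiples of the array mean), for both WD44 experiments and for PGK12.1 experiments 3 and 4. Right, the percent of genes in each range that were higher (red) or lower (blue) by at least 0.2 in both WD44 experiments; the higher ones are concentrated below a level of 0.25, where the WD44 medians were 0.05 to 0.12.

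Among the partners of KDM6A, 1 gene was higher while the rest were close to control or lower. *Pagr1a*, which encodes the PAGR1 subunit of the KMT2C and KMT2D complexes, had log2 values of 11.03 and 11 on the control arrays and 11.47 and 11.48 on the *Kdm6a* RNAi arrays of experiments 1 and 2. The groups did not overlap and lay far apart compared with the gap inside each. The mean difference was 0.46 (SE 0.0709, 95% interval 0.30 to 0.62), a value 37.6% above control, with an adjusted p of 0.165 in limma and 0.00313 with an intensity trend and robust variances. In PGK12.1 the mean difference of *Pagr1a* was 0.05, and the difference between the lines had an adjusted p of 0.0866 in limma. *Pagr1a* was the only gene of the 18 H3K4 methyltransferase genes tested that was higher in both experiments, while 13 were lower in both. The methyltransferase *Kmt2c* went from 10.55 to 10.25 and from 10.51 to 10.34, and *Kmt2d* from 10.19 to 9.9 and from 10.16 to 10, with adjusted p of 0.185 and 0.276 in limma. *Kmt2b*, which acts at promoters of developmental genes, had differences of -0.17 and -0.11. For the list as a whole, the median was -0.05 in experiment 1 and -0.11 in experiment 2, beside 0.01 and -0.02 over all genes. No gene of the list had a level under 0.25, and all genes at or above it had medians of -0.02 and -0.04, with 41.5% lower in both. The count of 1 higher and 13 lower became 2 and 11 after quantile normalization and 3 and 12 with the level trend removed.

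The genes that write or erase H3K27 methylation were mostly a little lower. Of 16 tested, 12 were lower and 1 higher in both experiments, with medians of -0.08 and -0.07, and *Kdm6a* itself was the only one alike. With the level trend removed, 9 were lower and 2 higher. Of all genes with a level of at least 0.25, 41.5% were lower and 21.2% higher in both. *Kdm7a*, an H3K9 and H3K27 demethylase, went from 9.63 to 9.29 and from 9.55 to 9.37. *Aebp2*, an accessory subunit of PRC2, had differences of -0.31 and -0.12, and *Suz12*, a core subunit, -0.09 and -0.09. Of the 15 subunits of PRC1 tested, 2 were higher and 6 lower in both, among them *Phc1* at -0.10 and -0.14.

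Sequence upstream of 3 genes that passed only with an intensity trend and robust variances is shown because they stand for different groups below: a partner of KDM6A, a zinc finger gene and a pluripotency gene. Each is the RefSeq promoter window of GRCm38.p6, 250 bases before to 50 bases after the gene start, 5′ to 3′ on the strand of the gene, with every CG dinucleotide in capitals.
*Pagr1a*, chr7:127017303-127017602, minus strand: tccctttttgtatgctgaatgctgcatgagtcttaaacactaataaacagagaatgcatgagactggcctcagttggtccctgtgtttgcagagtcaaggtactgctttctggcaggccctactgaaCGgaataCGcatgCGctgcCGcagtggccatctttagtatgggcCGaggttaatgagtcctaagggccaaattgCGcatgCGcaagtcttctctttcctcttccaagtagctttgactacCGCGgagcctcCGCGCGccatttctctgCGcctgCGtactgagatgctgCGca
*Zfp946*, chr17:22423952-22424251, plus strand: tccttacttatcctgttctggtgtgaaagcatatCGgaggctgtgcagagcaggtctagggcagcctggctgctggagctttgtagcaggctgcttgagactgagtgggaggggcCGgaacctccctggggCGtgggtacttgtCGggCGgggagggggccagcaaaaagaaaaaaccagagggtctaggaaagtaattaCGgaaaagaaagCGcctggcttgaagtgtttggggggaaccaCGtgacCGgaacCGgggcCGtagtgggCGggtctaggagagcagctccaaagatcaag
*Tcl1*, chr12:105222688-105222987, minus strand: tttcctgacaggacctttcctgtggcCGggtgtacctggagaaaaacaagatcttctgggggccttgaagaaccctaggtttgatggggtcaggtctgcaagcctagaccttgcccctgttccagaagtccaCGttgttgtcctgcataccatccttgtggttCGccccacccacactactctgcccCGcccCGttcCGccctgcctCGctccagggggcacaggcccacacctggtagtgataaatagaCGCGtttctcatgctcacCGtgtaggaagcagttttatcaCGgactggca
The *Pagr1a* window holds 15 CG dinucleotides, that of *Zfp946* 12 and that of *Tcl1* 11, against a median of 7 over the 27025 promoters of the table and of 19 over the 12088 tested genes with a promoter. The hexamer GGGCGG, searched on both strands, was in the windows of *Zfp946* and *Tcl1* and not in that of *Pagr1a*, while 35.9% of all promoters and 60.3% of those of tested genes hold it. A comparison of base composition between the alike genes and all genes was void, since a promoter was found for only 75.9% of the higher and 73.8% of the lower genes, and for 78.8% of all genes tested.

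Of the 12 genes highest in both experiments, ranked by the smaller of the 2 differences, 8 had a level under 0.25. Of these 12, *Prp2*, a proline-rich protein gene, led with 8.85 and 9.13 on the control arrays and 9.4 and 9.73 after *Kdm6a* RNAi, a mean difference of 0.58 (SE 0.139, adjusted p = 0.165 in limma). *Ndn*, the imprinted gene for necdin, a growth-restraining protein of postmitotic neurons, had 10.58 and 10.71 on the controls and 10.96 and 11.14 after *Kdm6a* RNAi. *Penk*, which encodes the precursor of enkephalins, went from 9.47 to 9.93 and from 9.74 to 10.12. In all 3 genes the groups did not overlap, and *Penk* and *Ndn* were also higher on average in PGK12.1, at 0.36 and 0.26, without passing there. The somatostatin receptor gene *Sstr1* (0.42 and 0.41), the carnitine transporter gene *Slc22a16* (0.53 and 0.35) and the odorant receptor gene *Olfr316* (0.36 and 0.44) were higher at levels of only 0.11 to 0.12. On the WD44 arrays alone the level of *Slc22a16* was below 0.1, as was that of *4931403M11Rik*, so both passed the minimum through PGK12.1. *Iqcd*, whose product is a calmodulin-binding axonemal protein, had differences of 0.48 and 0.36. The remaining genes of the 12 were *A930003A15Rik*, *Gm10536*, *4931403M11Rik* and *Mir455*, with differences of 0.36 to 0.49.

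*S100a10*, which had a level of 8.73, was also higher. It encodes the partner of annexin A2 at the plasma membrane, and its log2 values were 13.23 and 13.27 on the controls and 13.48 and 13.63 after *Kdm6a* RNAi. The groups did not overlap. With a mean difference of 0.31 (SE 0.0708), it had an adjusted p of 0.165 in limma and of 0.0247 with an intensity trend and robust variances.

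Next to *Kdm6a*, the 12 genes lowest in both experiments came from several classes of RNA. *Snord35a*, a small nucleolar RNA gene inside the ribosomal protein gene *Rpl13a*, had log2 values of 12.41 and 12.31 on the controls and 11.98 and 11.8 after *Kdm6a* RNAi. *Rian*, a maternally expressed noncoding RNA of the *Dlk1* to *Dio3* imprinted cluster, went from 8.27 to 7.66 and from 8.21 to 7.79, a mean change of -30.0%. *Zfp946*, a zinc finger gene of chromosome 17, went from 9.6 to 9.21 and from 9.78 to 9.21. None of these groups overlapped. The replication-dependent histone gene *H3c15* (-0.56 and -0.43), the deaminase family gene *Apobec2* (-0.47 and -0.44), the transcriptional repressor gene *Zbtb32* (-0.38 and -0.41) and the incretin receptor gene *Glp1r* (-0.38 and -0.38) were lower as well. *Rbm12b2*, an RNA-binding protein gene, had -0.41 and -0.38, and *Igkv4-55*, *Zfp442* and *Tbrg3* had differences between -0.38 and -0.64. Apart from *Kdm6a*, their adjusted p in limma lay between 0.165 and 0.364.

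A further 3 genes passed with an intensity trend and robust variances. *Elf3*, an ETS transcription factor of epithelia, went from 10.05 to 9.69 and from 9.82 to 9.46. *Rrs1*, which is needed to assemble the large ribosomal subunit, had differences of -0.28 and -0.49, and *1700001L05Rik* had -0.41 and -0.30. All 3 had an adjusted p of 0.0468 in that limma fit and of 0.165 in the fit without trend, and they were named after their values were seen.

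Genes of naive pluripotency, the state of ES cells in LIF, were lower more often than higher, by small amounts. Of 33 tested, 18 were lower and 2 higher in both experiments, with medians of -0.07 and -0.06. All 33 had a level of at least 0.25, where 41.5% of genes were lower and 21.2% higher in both. The counts became 16 lower and 6 higher after quantile normalization, and 18 and 7 with the level trend removed. The core factors stood close to control: *Pou5f1* had differences of 0.06 and 0.07, *Sox2* of -0.04 and -0.04, and *Nanog* of -0.07 and -0.09. *Tcl1*, which encodes a coactivator of AKT, had the largest difference of the list by the smaller of its 2 experiments, with log2 values of 9.89 and 9.64 on the controls and 9.51 and 9.33 after *Kdm6a* RNAi. Its groups did not overlap, and its adjusted p was 0.165 in limma and 0.0227 with an intensity trend and robust variances. *Dppa3*, a maternal factor that guards DNA methylation in the zygote, went from 9.96 to 9.74 and from 9.96 to 9.53. The transcription factor genes *Zfp42* (-0.28 and -0.18) and *Tbx3* (-0.28 and -0.16) followed. Of the 14 genes of primed pluripotency, the state after implantation, 3 were higher and 2 lower in both, with *Sox3* at 0.24 and 0.15.

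Germ cell genes, too, were mostly lower. Of 22 tested, 12 were lower and 3 higher in both experiments, with medians of -0.08 and -0.14, and with the level trend removed 14 were lower and 2 higher. Over all genes tested, 33.1% were lower and 31.3% higher in both. *Sycp3*, which builds the axis of meiotic chromosomes, went from 8.41 to 8.15 and from 8.43 to 7.93, and its groups did not overlap. *Sycp1*, which joins the axes, had differences of -0.19 and -0.36, and *Stk31*, a kinase gene of germ cells, -0.18 and -0.22. *Zp3*, which encodes the sperm-binding protein of the egg coat, was not on the list and had 10.25 and 10.15 on the controls against 9.88 and 9.8 after *Kdm6a* RNAi. None of these genes passed in WD44. On the PGK12.1 arrays alone *Zp3* fell by 0.31 (adjusted p = 0.0173 in limma).

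Genes of early lineages had no direction common to all lists. Over all genes tested, 31.3% were higher and 33.1% lower in both experiments. Of 18 primitive endoderm genes, 9 were higher and 2 lower in both, with *Amn*, a component of the cobalamin receptor of visceral endoderm, at 0.23 and 0.31, and the transcription factor gene *Foxa2* at 0.24 and 0.17. Of 14 trophoblast genes, 4 were higher and 6 lower: *Krt18*, an epithelial keratin gene, went from 12.29 to 12.53 and from 12.2 to 12.5, while the T-box gene *Eomes* went from 9.84 to 9.6 and from 9.72 to 9.53. Of 14 neuroectoderm genes, 6 were higher and 4 lower. *Fabp7*, a fatty acid binding protein gene of radial glia, was lower (8.32 to 7.96 and 8.7 to 8.12), as was the neuronal factor gene *Neurod1* (-0.24 and -0.23). *Neurog2*, a proneural factor gene, was higher by 0.41 and 0.21, and *Hes5*, a NOTCH target of neural progenitors, by 0.22 and 0.27. Of 19 mesoderm and primitive streak genes, 10 were higher and 5 lower, with the VEGF receptor gene *Kdr* at 0.20 and 0.48. After quantile normalization the counts became 10 and 0 for primitive endoderm and 10 and 4 for mesoderm. With the level trend removed they were 8 and 2 for primitive endoderm and 9 and 5 for mesoderm. A level under 0.25 was found for 6 of the 18 primitive endoderm and 11 of the 19 mesoderm genes.

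The *Hox* genes, classic targets of Polycomb silencing, were higher in both experiments for 17 of 26 tested and lower for none, and 23 of the 26 had a level under 0.25. Their medians of 0.17 and 0.13 lie beside medians of 0.1 and 0.06 over all genes at such levels. With the level trend removed, 12 were higher and 4 lower, with medians of 0.03 and 0.06. *Hoxa4* went from 8.32 to 8.56 and from 8.44 to 8.7, and *Hoxd4*, *Hoxb6* and *Hoxd3* had differences of 0.18 to 0.31. *Hoxd4* had a level below 0.1 on the WD44 arrays alone.

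The collagen genes, which build the extracellular matrix and were chosen as a family after values were seen, are given without a test. Of 44 tested, 42 were higher and 1 lower in both, and 14 were alike higher (31.8%, against 3.12% of all genes). Their medians were 0.22 and 0.17. Among the 19 with a level of at least 0.25, 18 were higher and 1 lower, 8 of them alike. The count was 40 higher and 0 lower with the level trend removed, where 6 were alike, and 43 and 0 after quantile normalization. *Col9a3*, a cartilage collagen gene, went from 8.56 to 8.94 and from 8.72 to 9.06, and *Col11a2* from 8.21 to 8.49 and from 8.27 to 8.59. The basement membrane genes *Col4a1* (0.26 and 0.20) and *Col4a3* (0.39 and 0.27) and the fibrillar genes *Col3a1* (0.21 and 0.26), *Col1a2* (0.16 and 0.17) and *Col1a1* (0.08 and 0.20) were higher too, while *Col18a1* had -0.04 and -0.03. In the PGK12.1 experiments the medians over the same 44 genes were -0.15, -0.005, 0.04 and -0.04.

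**Figure D4:**
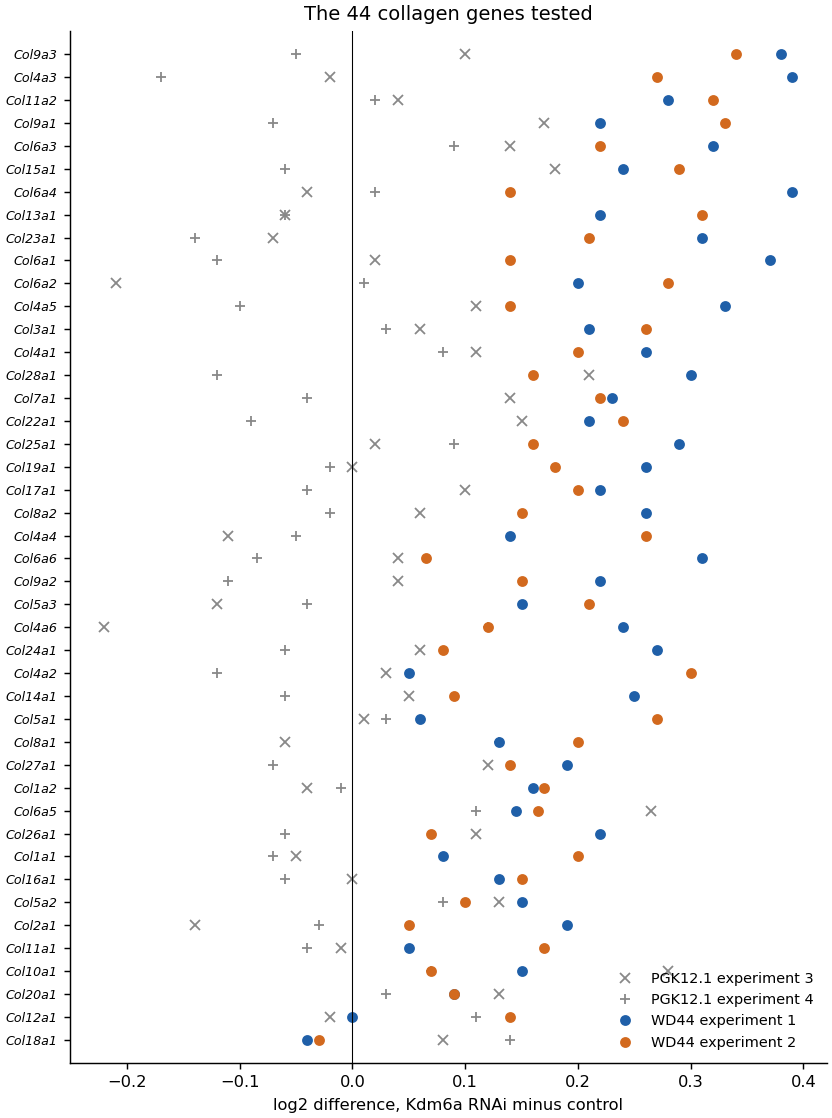
Log2 difference (Kdm6a RNAi minus control) of each of the 44 collagen genes tested, ordered by their mean difference in WD44, with filled circles for the WD44 experiments and crosses and plus signs for PGK12.1 experiments 3 and 4. In WD44, 42 genes lie to the right of 0 in both experiments, while PGK12.1 scatters around 0 with medians of 0.04 and -0.04.

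The fibroblast list shares genes with the collagens and gave 13 of 22 higher and 2 lower in both experiments, with *Fbln5*, an elastic fibre protein gene, at 0.30 and 0.23 and *Thy1*, a fibroblast surface antigen gene, at -0.22 and -0.16. The summed level of the list was 21.4 and 21 on the controls and 21.6 and 22.7 after *Kdm6a* RNAi, and 7 of the 8 MEF markers tested were higher in both. The part of residual feeder cells in the collagen result was not tested. Of 21 targets of YAP and SRF, factors that answer to cell tension, 14 were higher and 0 lower in both (16 and 2 with the level trend removed): *Tpm1*, a tropomyosin gene, went from 12.24 to 12.42 and from 12.26 to 12.53, and the matrix protein genes *Ccn1* (0.15 and 0.35) and *Ccn2* (0.16 and 0.16) followed. Of 24 junction genes, 15 were higher and 2 lower. *Cdh2*, which encodes N-cadherin, went from 10.7 to 10.9 and from 10.62 to 10.97, and *Epcam*, an epithelial adhesion gene, from 11.79 to 11.94 and from 11.93 to 12.17. The keratin genes, again a family chosen after values were seen, were higher in both for 27 of 33 and lower for 2. With the level trend removed the counts were 21 and 2. A level under 0.25 was found for 24 of the 33, and 2558 of the 4761 genes at such levels were higher in both. Beside the counts of all these lists, 31.3% of all genes tested were higher in both, and 21.2% of those with a level of at least 0.25. No gene of these lists passed in WD44.

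Zinc finger genes with a *Zfp* symbol leaned the other way. Many of them encode KRAB repressors that silence transposable elements, and many lie in clusters. Of 324 tested, 195 were lower and 39 higher in both experiments, and 25 were alike lower (7.72%, against 1.86% of all genes) and 2 alike higher. The medians were -0.07 and -0.09 in WD44, and between 0.01 and 0.03 in the 4 PGK12.1 experiments. The count of alike lower genes stayed at 25 with the level trend removed and was 12 after quantile normalization, with 150 lower and 55 higher. Besides *Zfp946*, the lower genes on chromosome 17 included *Zfp943* (8.31 to 7.95 and 8.25 to 7.85), *Zfp563* (8.23 to 7.92 and 8.27 to 7.87) and *Zfp760* (9.44 to 9.03 and 9.29 to 9.01). Members of such clusters resemble each other in sequence, so that probe sets may share signal. The family was chosen after values were seen, and its counts are a description.

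Small nucleolar RNA genes, whose products guide the modification of ribosomal RNA and mostly come from introns of host genes, were lower in both experiments for 33 of 51 tested and higher for 0. Of the 51, 9 were alike lower (17.6%, against 1.86% of all genes), 5 with the level trend removed and 5 after quantile normalization. Over all genes tested, 33.1% were lower in both, and 41.5% of those with a level of at least 0.25. Such a level was found for 45 of the 51. The medians were -0.15 and -0.11 in WD44. In PGK12.1 they were 0.05 and -0.03 in the 2 double and -0.15 and -0.23 in the 2 single RNAi experiments. The double RNAi arrays of PGK12.1 had array medians of 6.15 to 6.21 and its single ones 6.47 to 8.21, so treatment and array scale cannot be told apart there. *Snord22* went from 10.09 to 9.74 and from 10.02 to 9.63, and *Snora74a* from 11.2 to 10.87 and from 10.86 to 10.46. Where the RefSeq positions placed a tested gene around the snoRNA gene, the host differed less: *Rbmx* had -0.13 and -0.10, against -0.32 and -0.57 for *Snord61*, and *Wdr43* had -0.06 and -0.04, against -0.24 and -0.25 for *Snord53*.

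Among microRNA genes, 19 of 128 tested were alike higher (14.8%) and 5 alike lower (3.91%), against 3.12% and 1.86% of all genes. The probe sets read transcripts of the gene, and which form they read, primary, precursor or mature, is not given. The mature sequences of 22 of the 24 alike genes came from RefSeq (GRCm38.p6), 41 sequences with 40 different seeds. Those of genes with large differences, and of the only pair that shares a seed, are shown 5′ to 3′, with the seed (bases 2 to 8) in capitals.
*Mir455*, mmu-miR-455-5p, chr4:63256867-63256888, plus strand: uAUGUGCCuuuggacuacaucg
*Mir455*, mmu-miR-455-3p, chr4:63256904-63256924, plus strand: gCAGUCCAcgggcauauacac
*Mir342*, mmu-miR-342-5p, chr12:108658638-108658659, plus strand: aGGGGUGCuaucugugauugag
*Mir342*, mmu-miR-342-3p, chr12:108658680-108658702, plus strand: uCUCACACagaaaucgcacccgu
*Mir505*, mmu-miR-505-3p, chrX:60394416-60394437, minus strand: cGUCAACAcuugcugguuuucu
*Mir505*, mmu-miR-505-5p, chrX:60394451-60394473, minus strand: gGGAGCCAggaaguauugauguu
*Mir7-1*, mmu-miR-7a-5p, chr13:58392841-58392863, minus strand: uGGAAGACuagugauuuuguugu
*Mir25*, mmu-miR-25-3p, chr5:138165332-138165353, minus strand: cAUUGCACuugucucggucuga
*Mir363*, mmu-miR-363-3p, chrX:52741697-52741718, minus strand: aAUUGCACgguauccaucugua
*Mir455* had 7.97 and 8.17 on the controls and 8.46 and 8.53 after *Kdm6a* RNAi, and *Mir342* had 7.3 and 7.61 against 7.62 and 7.94. *Mir505*, on the X chromosome, went from 9.05 to 8.34 and from 9.38 to 9.11, and *Mir7-1* from 9.63 to 9.21 and from 9.7 to 9.44. The 2 genes that share the seed AUUGCAC differed in sign: *Mir25* was higher by 0.23 and 0.31 and *Mir363* lower by 0.28 and 0.36. The genes around them had smaller differences. *Mcm7*, around *Mir25*, had 0.12 and -0.04, *Evl*, around *Mir342*, 0.08 and 0.02, and *Hnrnpk*, around *Mir7-1*, 0.03 and 0.04, while *Col27a1*, around *Mir455*, had 0.19 and 0.14. Hosts were found by position alone, without strand. Of the 128 genes, 72 had a level under 0.25, where 7.25% of all genes were alike higher and 1.11% alike lower. With the level trend removed, 14 of the 128 were alike higher and 6 alike lower.

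The genes of RNA interference itself, which the siRNAs enter in both groups, were lower in both experiments for 11 of 12 and higher for 1. None of the 12 had a level under 0.25, and 41.5% of all genes at or above it were lower in both. The count was 10 lower and 1 higher after quantile normalization and 11 and 1 with the level trend removed. *Ago3*, an Argonaute gene, went from 9.79 to 9.51 and from 9.85 to 9.61, and *Tnrc6a*, which encodes a silencing partner of Argonaute, from 11.03 to 10.8 and from 11 to 10.82. *Ago1* had differences of -0.15 and -0.30 and *Tnrc6c* of -0.15 and -0.15, while *Ago2* had -0.01 and -0.10. The medians were -0.06 and -0.17, and the adjusted p of *Ago3*, *Tnrc6a*, *Ago1* and *Tnrc6c* lay between 0.183 and 0.333 in limma. On the PGK12.1 arrays *Ago1* fell by 0.42 (adjusted p = 0.0302 in limma) and *Tnrc6c* rose by 0.34 (adjusted p = 0.0176).

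Imprinted genes, expressed from a single parental copy, showed no common direction: 8 of 25 were higher and 11 lower in both experiments. Beside *Ndn* and *Rian*, *Zim1*, a zinc finger gene of the *Peg3* cluster, went from 7.89 to 7.56 and from 8.08 to 7.46, and *Plagl1*, a growth-regulating zinc finger gene, from 10.6 to 10.21 and from 10.44 to 10.22. *Meg3*, which lies next to *Rian* and is also maternally expressed, had differences of -0.40 and -0.12, and *Peg3* of -0.11 and -0.11.

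In the signalling lists, single genes stood out rather than pathways. *Sfrp1*, a secreted antagonist of WNT, went from 11.44 to 11.1 and from 11.45 to 11.06 without overlap, while the ligand gene *Wnt9a* was higher by 0.23 and 0.26, and the WNT list held 12 higher and 12 lower genes of 34 (16 and 9 after quantile normalization). In BMP signalling (6 higher and 10 lower of 20, and 6 and 7 after quantile normalization), the receptor gene *Bmpr2* went from 11.36 to 11.06 and from 11.44 to 11.15, the target *Id3* had -0.13 and -0.39, and *Bmp1*, a procollagen protease gene, was higher by 0.19 and 0.33. In NOTCH signalling (3 higher and 8 lower of 19, which became 4 and 3 after quantile normalization), the ligand gene *Dll1* had -0.33 and -0.19 and the target *Heyl* 0.23 and 0.22. Of 25 genes of NODAL, activin and TGFB signalling, 8 were higher and 10 lower, which turned to 11 and 7 after quantile normalization and 8 and 4 with the level trend removed, with the activin subunit gene *Inhbb* at 0.22 and 0.40. Of 30 FGF and MAPK feedback genes, 7 were higher and 5 lower, with *Jun* at 0.21 and 0.27, and these counts became 12 and 3 after quantile normalization and 11 and 3 with the level trend removed. Retinoic acid genes split as 8 higher and 5 lower of 18, and as 6 and 7 with the level trend removed.

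Lists of growth and metabolism are read beside the 10579 genes with a level of at least 0.25, of which 4385 were lower (41.5%) and 2239 higher (21.2%) in both experiments. Of 28 G2 and M phase genes, 13 were lower and 4 higher in both experiments: *Top2a*, the topoisomerase of mitotic chromosomes, went from 9.58 to 9.26 and from 9.45 to 9.16, and the spindle checkpoint kinase gene *Ttk* had -0.27 and -0.19. Of 32 G1 and S phase genes, 9 were higher and 12 lower, which turned to 10 and 6 after quantile normalization. Ribosome biogenesis held 14 lower and 4 higher of 32, with *Nop58* at -0.16 and -0.15, while the 55 cytosolic ribosomal protein genes held 20 lower and 9 higher with 0 alike. Solute carriers of amino acids and folate held 12 lower and 2 higher of 24. Of 28 hypoxia and glycolysis genes, 13 were lower and 1 higher, but the largest difference rested on 1 array. *Egln3*, an oxygen sensor gene, had 11.48 on the control of experiment 1 and 10.46 to 10.57 on the other 3 arrays, so its difference was -0.97 in experiment 1 and -0.11 in experiment 2. In the other direction, *Creld2* (0.22 and 0.25) and *Sdf2l1* (0.17 and 0.17), chaperone-related genes of the endoplasmic reticulum, and *Srxn1* (0.20 and 0.26) and *Nqo1* (0.16 and 0.28), antioxidant targets of NRF2, were higher. The NRF2 list held 8 higher and 3 lower of 20 and the unfolded protein list 11 higher and 6 lower of 30.

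The remaining lists held few alike genes. Interferon genes split as 5 higher and 6 lower of 17, p53 targets as 6 and 5 of 20, cholesterol synthesis as 2 and 7 of 26, heat shock genes as 1 and 5 of 16, MYC partners as 4 and 4 of 13, canonical histone genes as 1 and 4 of 11, DNA methylation genes as 1 and 5 of 13, endosome and lysosome genes as 6 and 5 of 22, oxidative phosphorylation as 8 and 12 of 27, and genes of the 2-cell stage as 3 and 2 of 10. By the smaller of the 2 differences, the early endosome tether gene *Eea1* (-0.34 and -0.25), the histone gene *H2bc8* (-0.30 and -0.25), the DNA glycosylase gene *Mbd4* (-0.18 and -0.23) and the mitochondrial transcription factor gene *Tfam* (-0.18 and -0.21) led these lists. After quantile normalization the counts became 5 and 5 for interferon genes, 9 and 4 for p53 targets, 4 and 5 for cholesterol synthesis and 9 and 4 for endosome and lysosome genes, and with the level trend removed 2 and 4 for the 2-cell stage. The 2-cell-stage genes *Usp17lc*, *Pramel7*, *Tcstv3* and *Tmem92* had levels of only 0.045 to 0.099 on the WD44 arrays. These genes passed the minimum through PGK12.1. The 502 X-linked genes held 128 higher and 201 lower in both (157 and 157 after quantile normalization), and 11 alike higher (2.19%) and 17 alike lower (3.39%). Among 9 X-linked homologues of Y genes and genes that escape X inactivation, 1 was higher and 6 lower, and the matrix proteoglycan gene *Bgn* had -0.34 and -0.36. Of 5 Y-linked genes, 3 were lower and 1 higher, with the H3K4 demethylase gene *Kdm5d* at -0.18 and -0.30 and the sex-determining gene *Sry* at 0.15 and 0.24. Of 15 *Rhox* genes, an X-linked homeobox family of the germ line and placenta, 5 were higher and 5 lower, and none was alike.

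PGK12.1 gave a check on other samples, since a limma fit on its 8 arrays alone uses no WD44 array. That fit called 332 of the 15340 genes higher (2.16%) and 206 lower (1.34%). Of the 286 genes alike lower in WD44, it called 22 lower (7.69%) and 2 higher (0.699%). Of the 478 alike higher in WD44, it called 6 higher (1.26%) and 2 lower (0.418%). In all 4 PGK12.1 experiments, 28 of these 478 were higher (5.86%) and 61 lower (12.8%), against 16.3% and 10.6% of all genes. Of the 286 alike lower, 26 were higher (9.09%) and 57 lower (19.9%) in all 4. The minimum level was set over all 12 arrays, so a gene could pass it through PGK12.1. Of the alike genes, 279 lower and 454 higher ones also had a level of at least 0.1 on the WD44 arrays alone, and among them the PGK12.1 fit called 19 lower (6.81%) and 3 higher (0.661%), against 1.32% and 2.05% of all genes with such a level.

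The 22 genes lower in both lines include *Kdm6a* and *Sfrp1*. *Sfrp1* had a mean difference of -0.37 in WD44 and fell by 0.38 in PGK12.1 (adjusted p = 0.0247 in limma on the PGK12.1 arrays). *Sting1*, the adaptor of cytosolic DNA sensing, went from 8.3 to 8.03 and from 8.18 to 7.75 in WD44 and fell by 0.56 in PGK12.1 (adjusted p = 0.00203). *Spic*, an ETS transcription factor gene, had -0.23 and -0.67 in WD44 and fell by 0.58 in PGK12.1, and *Plac8*, first known from placenta, had -0.47 and -0.32 and fell by 0.51. The autophagy receptor gene *Calcoco2* (-0.23 and -0.35), the signalling adaptor gene *Plekha2* (-0.34 and -0.34), the Rag GTPase gene *Rragd* (-0.25 and -0.30) and the imprinted gene *Plagl1* were lower in both lines as well. So were the lectin gene *Lgals9*, the zinc finger genes *Klf8* and *Zbtb10*, the homeobox gene *Hesx1*, *Rmrp*, the RNA of the RNase MRP complex, and *Cox7a1*, *Fam169b*, *Nlrp9b*, *Rasgrp1*, *Sema6c*, *Tm4sf5*, *Tmem219* and *Zp3*. Of these genes, *Spic*, *Hesx1* and *Nlrp9b* had a level below 0.1 on the WD44 arrays and passed the minimum through PGK12.1.

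Higher in both lines were *Cdh2*, the growth factor gene *Fgf1* (6.62 to 6.92 and 6.74 to 6.98 in WD44), *Mmrn2*, an endothelial matrix protein gene (6.46 to 6.96 and 6.7 to 7.05), *Scrn1* (10.34 to 10.63 and 10.31 to 10.65), *Srxn1* and *Gm5662*. Of these 6 genes, *Fgf1*, *Mmrn2* and *Gm5662* had a level below 0.1 on the WD44 arrays and passed the minimum through PGK12.1. The 4 genes that passed in PGK12.1 with the opposite sign were *Serpinb9b*, a granzyme inhibitor gene (0.20 and 0.38 in WD44, -0.39 in PGK12.1), *Ttc22* (0.34 and 0.28 against -0.25), *Pde4d*, a cAMP phosphodiesterase gene (-0.35 and -0.20 against 0.27), and *Zup1*, a ubiquitin peptidase gene (-0.37 and -0.21 against 0.21). These genes were named after their values were seen.

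**Figure D5:**
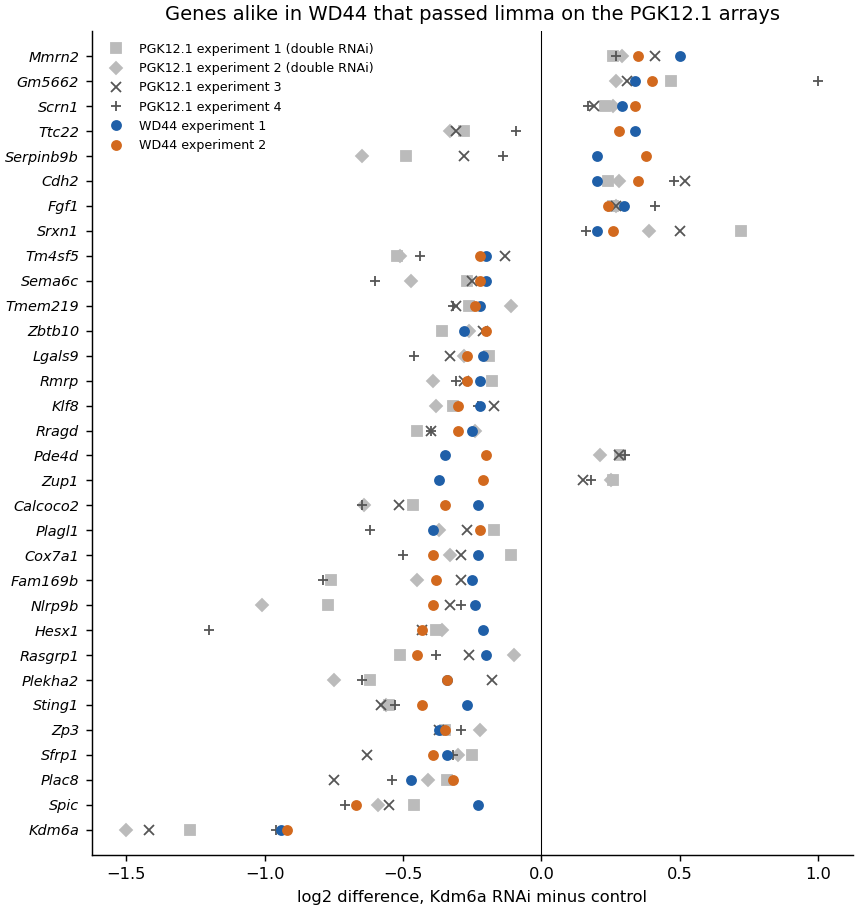
Log2 difference (Kdm6a RNAi minus control) in every experiment for the 32 genes that were alike in WD44 and passed limma on the PGK12.1 arrays, with filled circles for WD44, grey squares and diamonds for the double RNAi experiments in PGK12.1 and crosses and plus signs for the single ones. In 28 genes the lines share a sign, and in Ttc22, Serpinb9b, Pde4d and Zup1 they do not.

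The difference between the lines was tested in the fit over all 12 arrays and passed 0 of 15340 genes in limma (0% called), with a smallest adjusted p of 0.0559 and 3222 genes at an unadjusted p under 0.05. The PGK12.1 effect pooled the 2 single and the 2 double RNAi experiments, so dose and time of treatment also differed between the lines. Among the 6 genes with the smallest p, *Cldn6*, a claudin gene of embryonic epithelia, had differences of 0.09 and 0.08 in WD44 and fell by 0.59 in PGK12.1. *Myof*, which encodes the membrane repair protein myoferlin, went from 9.54 to 9.7 and from 9.39 to 9.74 in WD44 and fell by 0.33 in PGK12.1. *4931428F04Rik* had -0.31 and -0.36 in WD44 against 0.20 in PGK12.1. The lysophosphatidic acid receptor gene *Lpar4* (0.05 and -0.19), the secreted inhibitor gene *Wfdc2* (-0.06 and 0.22) and the arginase gene *Arg2* (0.04 and -0.27) had no common sign in WD44 and mean differences of 0.75, -0.78 and 0.60 in PGK12.1.

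Some genes went opposite ways in the 2 WD44 experiments. The largest were *Scarna13*, a small Cajal body RNA gene (0.41 and -0.39), and the immediate response genes *Bhlhe40* (10.29 to 9.76 and 9.66 to 10.02) and *Ier3* (9.42 to 9.01 and 8.61 to 8.96), with *Slc25a2*, a mitochondrial ornithine carrier gene, at -0.33 and 0.30. In these 4 genes the control arrays differed more from each other than either did from its own *Kdm6a* RNAi array. The germ line homeobox gene *Rhox6* (0.27 and -0.21), its neighbour *Rhox9* (0.12 and -0.16), the tetraspanin gene *Cd9* (-0.09 and 0.34) and the LIF effector gene *Stat3* (0.20 and -0.03) belonged to the same class, and their groups overlapped.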

How the data were processed

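The platform was the Mouse Gene 1.0 ST array. Per the submitters' processing notes, Expression Console and RMA gave the log2 values that the authors deposited. The software versions and the set of arrays that RMA normalized jointly were not given in the sources used. The annotation lists a single symbol for 21789 of 35556 probe sets, several for 1621 and no gene for 12146, and only those with a single symbol were named, apart from 21 *Rhox* probe sets named through the study's table. Log2 values were averaged per gene (999 genes had several probe sets). Genes with a mean level of at least 0.1 over the 12 arrays were tested (15340, with *Lcn5* just inside and *Lrrc17* just outside).

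limma 3.58.1 in R 4.3.3 fitted 1 effect of *Kdm6a* RNAi for each line with the experiment as a block (4 residual and 5.65 prior degrees of freedom), 2-sided, at a Benjamini-Hochberg adjusted p under 0.05. The labels number the 2 arrays of an experiment alike and the study's methods use paired tests. Deviations from the group means correlated at 0.265 within the WD44 experiments, which have the same value by construction. Scripts used Python 3.11.15, pandas 2.3.3 and matplotlib 3.10.9 and were tested on simulated data. The number of arrays limits the precision.

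Named genes were *Kdm6a* and its paralogues, genes the study names, 12 genes in each direction by the smaller of the 2 WD44 differences, up to 4 of each of 42 gene lists, 6 by the difference between lines and 4 with opposite signs. The members and lists were chosen with earlier results of these data known. Exceptions are said to be chosen after their values were seen.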

Additional observations from a re-analysis of the deposited data

Results flagged for a closer look

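In 40 of the named genes, both WD44 experiments went one way and all 4 PGK12.1 experiments the other, and 13 of these were alike by at least 0.2 in WD44. They were picked by the same values that the test below uses, so it adds no support. The share of such genes among all genes tested is not given. For the 13, the difference between the lines (WD44 minus PGK12.1, log2) was tested in limma, and its adjusted p lay between 0.0566 and 0.0868, so none passed 0.05. It was above 0 for *Serpinb9b* (0.68), *A930003A15Rik* (0.6175), *Ttc22* (0.5625), *Iqcd* (0.465), *4931403M11Rik* (0.4225), *Amn* (0.42), *Neurog2* (0.4125), *S100a10* (0.4025), *Hes5* (0.3825) and *Krt18* (0.3775). It was below 0 for *Pde4d* (-0.545), *4931428F04Rik* (-0.53) and *Zup1* (-0.5). Sex, strain, other differences of the lines and the second transfection in 2 PGK12.1 experiments cannot be told apart.

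Probe sets without a single listed gene were used in no comparison. Of 8241 such probe sets with a level of at least 0.1, 421 were higher (5.11%) and 892 lower (10.8%) by at least 0.2 in both WD44 experiments, against 3.12% and 1.86% of named genes. What these probe sets read was not tested.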

How the results depend on the processing

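The effect of *Kdm6a* RNAi in WD44 passed 0 genes in limma. It passed 1 gene without PGK12.1 experiment 4, which is *Kdm6a* (-0.93, adjusted p = 0.0158), 1 gene at a minimum level of 0.25 (*Kdm6a*, adjusted p = 0.0224) and 8 with an intensity trend and robust variances (*Kdm6a*, adjusted p = 0.00313). Leaving out each experiment in turn gave counts of 0 to 1 and *Kdm6a* differences of -0.94 to -0.92, where with 1 WD44 experiment left the lone pair is assumed to vary like PGK12.1. Over the 18 alternatives *Kdm6a* lay between -0.94 and -0.8925. Without the replicate block, 0 genes passed and 0 had an unadjusted p under 0.05, since arrays of different scale then share a group, and *Kdm6a* kept -0.93. With the control arrays of the 2 WD44 experiments exchanged in place of the pairing by number, 452 genes were alike higher and 227 alike lower. The paired t-test of the study's methods gave 871 genes at p under 0.05 and 0 after Benjamini-Hochberg adjustment, with 449 genes left out for lack of a spread.

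The difference between the lines passed 0 genes, and 272 at a minimum level of 0.25, 543 with trend and robust variances, 12 with the level trend removed and 1 after quantile normalization. Leaving out any experiment gave 0, as did using the single RNAi experiments only. The cause of these counts was not tested. Alike higher genes numbered 478, and 49 at a size of 0.3, 133 at a minimum level of 0.25, 757 with no minimum and 211 with the level trend removed. Alike lower genes numbered 286, and 55 at a size of 0.3 and 155 after quantile normalization. For single named genes, 4087 values of 231 genes were computed, of which 7 passed where the value as reported did not and 6 changed sign. *Cd9* ranged from -0.09 to 0.34, *Stat3* from -0.03 to 0.2 and *Arg2* from -0.27 to 0.04 when either WD44 experiment was left out, and with the level trend removed *Rhox13* was -0.02518, *Rhox2a* -0.003372 and *Tcstv3* -0.04185. With 2 experiments in WD44, small differences cannot be told from the spread between arrays.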
